A study of Mus musculus with 9 samples.

Results

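The genes described here are 35 genes of the Fanconi anaemia pathway, homologous recombination, mismatch repair, break repair and the DNA damage checkpoint. They were taken from the count tables by gene symbol, and all 35 of 35 listed symbols were found among 55341 genes. The data were polyA RNA libraries of small-intestinal crypts from male C57BL/6 mice aged 8 to 12 weeks, in which the Polycomb gene Pcgf6 had been deleted or left intact. Each library was made by Smart-seq2, a full-length cDNA method, from 2 ng of RNA. The PCGF6 protein belongs to one of the variant PRC1 (Polycomb repressive) complexes, and the study addresses its role in adult intestinal epithelial cells. The groups were AhCre Pcgf6 WT (n = 2) and AhCre Pcgf6 KO (n = 2), given BNF (beta-naphthoflavone, which switches on the AhCre transgene), and Villin CreERT2 Pcgf6 WT (n = 3) and Villin CreERT2 Pcgf6 KO (n = 2), given TAM (tamoxifen). The Villin promoter is active throughout the intestinal epithelium. Sample titles give 15 days between induction and collection, while a second label line and the design text give 7 days, and for the Villin samples 1 label line names BNF where the title names TAM. Whether replicates were separate animals is not stated in the labels, so the p-values reflect the spread among these libraries, which may be technical. Agent, driver and any difference in collection cannot be told apart between the AhCre and Villin arms.

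The Fanconi pathway deals with crosslinks that tie the strands of DNA together. A core complex, anchored to DNA by FANCM, attaches ubiquitin to the paired proteins FANCD2 and FANCI at a stalled replication fork, after which nucleases open the crosslink. The resulting break is repaired by homologous recombination, in which BRCA1 and its partners promote resection of the ends and BRCA2, PALB2 and further proteins promote pairing with the intact copy. The kinases ATM and ATR signal the damage to CHEK1, CHEK2 and p53. Most of these genes are transcribed mainly in dividing cells, and in the intestine division takes place in the crypt.

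The libraries held 6455098 to 12377921 counts and had counts in 22058 to 38835 genes. All 35 members were among the 16250 genes that passed the low-count filter. The filter uses the size of the groups and not the genotype difference, and a level of 3 counts corresponded to 0.194 to 0.615 CPM, counts scaled to library size, depending on the library. Pcgf6 itself had 89 and 68 counts in AhCre KO against 219 and 136 in its WT, and 15 and 16 in Villin KO against 60, 99 and 49. In every KO library it was below the WT libraries of the same driver in CPM, and it fell by 1.99 (log2) in Villin (edgeR quasi-likelihood test, adjusted p = 0.0220), with -0.89 in AhCre (adjusted p = 1). The labels do not say which exons were deleted, nor whether these were counted. The Villin replicates differed from each other more than the AhCre replicates did. Chi-square divided by its degrees of freedom was 50.2 to 74.7 between Villin replicates and 8.01 and 12.8 between AhCre replicates. Scaling factors were 0.684 in Villin KO 1, 0.779 in Villin KO 2, 0.806 to 1.12 in Villin WT and 1.22 to 1.27 in AhCre. Because many members were lowest in Villin KO 1, the counts of members called are given with and without it.

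Across the Villin arm, 4 of the 35 genes fell in the KO and 0 rose: Fancd2, Atm, Fancm and Brca2. Calls are edgeR quasi-likelihood tests with a Benjamini-Hochberg adjusted p under 0.05 over all 16250 genes. That is 11.4% of the members, beside 2.88% of all tested genes that were called lower and 6.21% that were called in either direction. The median log2 fold change of the 35 was -0.86, beside -0.18 over all genes, and 30 of 35 values were negative. At an unadjusted p under 0.05, 14 members were lower and 0 higher. The share of all genes at that threshold is not given here. Counts at an unadjusted p, here and below, are therefore not read as results about the members or lists. In the AhCre arm 0 of 35 members were called by edgeR, beside 0.00615% of all genes, with 0 at an unadjusted p under 0.05. DESeq2 also called 0 members in AhCre, as did limma-voom, which had 1 higher and 1 lower member at an unadjusted p under 0.05. The AhCre median was -0.07, beside -0.0048 over all genes. The fit shares 1 estimate of the spread between both arms, although the Villin replicates differed more. With the libraries of each driver alone, 0 members were called in Villin and 0 in AhCre, beside 259 and 1046 of all genes. At an unadjusted p under 0.05 these fits had 5 members lower in Villin, and 1 higher and 1 lower in AhCre. The counts of calls in each arm thus depend on this pooling. The count over all genes in Villin also changed when single libraries were left out, as given at the end. Changes in the count of members are thus not read as particular to them. That member count in Villin rested on single libraries. Without Villin KO 1 it was 0 (5 lower at an unadjusted p under 0.05), with a member median of -0.48. Without Villin KO 2 it was 11, without Villin WT 1 it was 1 (Fancd2), and without Villin WT 2 it was 2 (Atm and Fancd2). By limma-voom 0 members were called in Villin (6 lower at an unadjusted p under 0.05), beside 138 of all genes. DESeq2 called 4 members, beside 1749 of all genes, which is a similar share. With both Villin WT 2 and Villin KO 1 left out, an alternative added after the data were seen, 0 members were called and the median was -0.05.

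**Figure D1:**
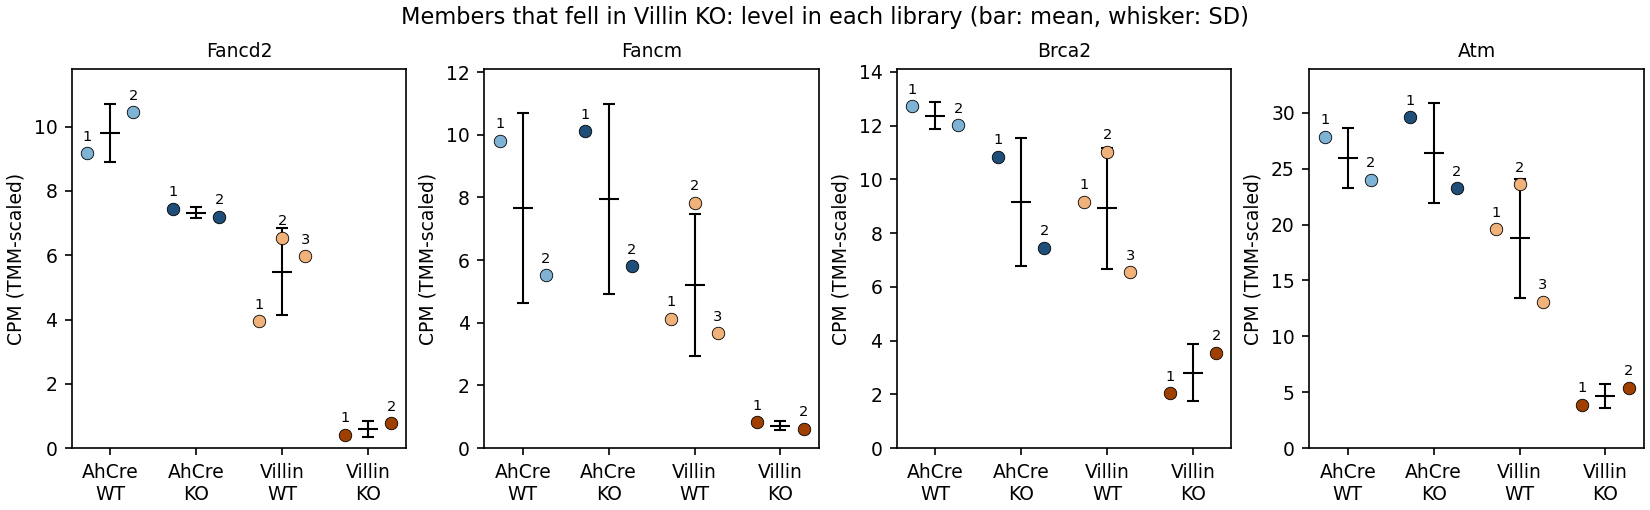
Normalised expression (CPM, linear y axis from 0) of Fancd2, Fancm, Brca2 and Atm by driver and genotype, with each library as a numbered point and the mean and SD of each group as a bar and whisker. Both Villin KO libraries lie below all 3 Villin WT libraries in every panel, whereas the AhCre groups overlap for Atm and Fancm.

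Fancd2 encodes the protein that is ubiquitinated at the centre of the pathway. It lies on chromosome 6 from 113531682 to 113597017 on the plus strand (GRCm38, ENSMUSG00000034023.16). In Villin WT its level was 3.95, 6.54 and 5.97 CPM, and in Villin KO it was 0.410 and 0.771 CPM, which came from 2 and 5 reads. Both KO libraries were below all 3 WT libraries. The group means were 5.49 ± 1.36 (SD, n = 3) and 0.591 ± 0.256 CPM (SD, n = 2), and Fancd2 fell by 3.15 on the log2 scale (SE 0.55, edgeR adjusted p = 0.0115). In AhCre the level was 9.17 and 10.4 CPM in WT and 7.44 and 7.20 CPM in KO. Those AhCre groups also did not overlap, but the log2 fold change of -0.42 (SE 0.43) did not pass the test (adjusted p = 1). Averaged over both drivers Fancd2 fell by 1.79 (SE 0.35, edgeR adjusted p = 0.0301), the only member called on the average, beside 1.17% of all genes called in either direction and 0.197% called lower. The difference between the drivers, 2.73 (SE 0.70), did not pass (adjusted p = 0.145). The Villin call was lost without Villin KO 1 (adjusted p = 0.0712), and over all alternatives its log2 fold change ranged from -3.72 to -2.53 and its adjusted p from 0.000648 to 0.144. The call on the average held in 6 of 17 alternatives.

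Exons of Fancd2 overlap those of another gene. Fancd2os, on the opposite strand, shares 257 bases, or 3.24% of the annotated exon length of Fancd2. The method does not keep the strand, so reads in the shared bases cannot be assigned. Fancd2os had at most 2 counts in any library. It was at 0 in all KO libraries of both drivers and also in AhCre WT 1, Villin WT 1 and Villin WT 3.

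Atm encodes the kinase that responds to double-strand breaks. Its level was 19.6, 23.6 and 13.1 CPM in Villin WT and 3.89 and 5.40 CPM in Villin KO. The lowest WT library was thus above the highest KO library. Atm fell by 2.01 (log2, SE 0.39, edgeR adjusted p = 0.0169), from a mean of 18.8 ± 5.30 (SD, n = 3) to 4.65 ± 1.07 CPM (SD, n = 2). The AhCre libraries held 27.8 and 24.0 CPM in WT and 29.6 and 23.2 CPM in KO, which overlap, with a log2 fold change of 0.03 (SE 0.37). The difference between drivers was 2.03 (SE 0.53, adjusted p = 0.146), and DESeq2 called it. The Villin call was lost without Villin KO 1 (adjusted p = 0.0907) or Villin WT 1 (0.05002), and it held in 12 of 18 alternatives, with a range of 0.000387 to 0.148. None of the exons of Atm overlap another annotated gene.

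Fancm encodes the DNA translocase that anchors the core complex. It was at 4.13, 7.83 and 3.66 CPM in Villin WT and at 0.819 and 0.617 CPM in Villin KO, from 4 reads in each KO library. The KO libraries were both below the WT libraries. The mean went from 5.21 ± 2.28 (SD, n = 3) to 0.718 ± 0.143 CPM (SD, n = 2), and Fancm fell by 2.87 (log2, SE 0.64, edgeR adjusted p = 0.0271). In AhCre the WT libraries held 9.81 and 5.52 CPM and the KO libraries 10.1 and 5.81 CPM, a log2 fold change of 0.05 (SE 0.51). The spread within each AhCre genotype was larger than the difference between them. The difference between drivers was 2.92 (SE 0.82, adjusted p = 0.166). The Villin call was lost on leaving out Villin KO 1 (adjusted p = 0.103), Villin KO 2 (0.0606), Villin WT 1 (0.0541) or Villin WT 2 (0.0593), and over all alternatives the adjusted p ranged from 0.00238 to 0.318. Fancm shares 7.07% of its exon length with 2 predicted genes that had at most 5 counts in any library.

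Brca2 encodes a mediator of homologous recombination that binds single-stranded DNA. Villin WT libraries held 9.17, 11.03 and 6.55 CPM and Villin KO libraries 2.05 and 3.55 CPM, again without overlap. It fell by 1.66 (log2, SE 0.45, edgeR adjusted p = 0.0481), from 8.92 ± 2.25 (SD, n = 3) to 2.80 ± 1.06 CPM (SD, n = 2). This was the weakest of the 4 calls. It held in 4 of 18 alternatives and was lost with, among others, the removal of any AhCre library, of Villin KO 1 (adjusted p = 0.187), of Villin WT 1 or of Villin WT 2. In AhCre the values were 12.7 and 12.0 CPM in WT and 10.8 and 7.46 CPM in KO, which do not overlap, with a log2 fold change of -0.43 (SE 0.43) that did not pass the test. The difference between drivers was 1.22 (SE 0.61, adjusted p = 0.347).

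Promoter sequence is shown for Fancm and Brca2 as examples. Both fell in Villin, and their upstream windows hold the letters of an E2F site. E2F is the factor family that switches on replication and repair genes before S phase. Atm, which also fell, holds both kinds of letters marked below, but its window is not printed. The sequences are the 250 bases before the annotated start (RefSeq, GRCm38.p6), 5′ to 3′ on the strand of the gene, with capitals for TTCCCGC (E2F) on either strand and for CCAAT (NF-Y).
Fancm, chr12:65075353-65075602 (+): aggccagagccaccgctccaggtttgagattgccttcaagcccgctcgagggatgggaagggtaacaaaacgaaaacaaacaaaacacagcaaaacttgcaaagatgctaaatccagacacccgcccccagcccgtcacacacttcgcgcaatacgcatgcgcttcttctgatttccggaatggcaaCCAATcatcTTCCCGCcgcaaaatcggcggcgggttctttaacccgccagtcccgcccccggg
Brca2, chr5:150522371-150522620 (+): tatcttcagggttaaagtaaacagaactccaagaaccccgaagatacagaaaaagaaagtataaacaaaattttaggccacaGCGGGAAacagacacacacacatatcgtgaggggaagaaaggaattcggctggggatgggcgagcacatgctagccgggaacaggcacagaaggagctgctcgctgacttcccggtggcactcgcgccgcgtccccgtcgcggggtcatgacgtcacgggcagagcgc
In Fancm the E2F letters begin 54 bases before the start and the NF-Y letters 63 bases before it, and in Brca2 the E2F letters lie on the other strand, 168 bases before the start. Windows of 300 bases (250 before to 50 after the start) were matched for 29 of the 35 members, as 32 windows. Those without one were Xrcc2, Rbbp8, Exo1, Nbn, Rad50 and Fancd2. TTCCCGC on either strand was in 37.5% of the member windows, in 4.60% of all 32851 windows, in 7.71% of the windows of tested genes and in 40.6% of the windows of a list of S phase genes. The members with it were Atm, Bard1, Brca2, Chek1, Chek2, Fancb, Fanci, Fancm, Msh6, Polq, Rad51c and Xrcc6. Among them Msh6 had a Villin log2 fold change of 0.33, and Chek2, Chek1, Xrcc6, Fancb and Msh6 were within the WT range in Villin KO 2. The median Villin log2 fold change was -1.45 for members with the letters and -0.82 for those without. CCAAT was in 65.6% of member windows and 37.5% of the windows of tested genes, with medians of -0.71 for members with it and -1.32 for those without. CACGTG (the E-box) was in 12.5% and 9.36%, with medians of -0.49 and -0.93, and TTTGAA (CHR) in 12.5% and 12.8%, with medians of -1.53 and -0.82. The medians thus differed in opposite directions between motifs, and no test was made of them. These are matches of letters and not evidence of binding.

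Among the other members of the Fanconi pathway, Fanci, the partner of Fancd2, was at 4.31, 4.36 and 3.85 CPM in Villin WT and at 0 and 2.62 CPM in Villin KO. The libraries did not overlap, but with 0 reads in 1 KO library and 17 in the other its log2 fold change of -1.57 did not pass the test (SE 0.77, adjusted p = 0.217). Fanci shares 15.95% of its exon length with Polg. The core complex members Fanca, Fancb, Fancc and Fancl had log2 fold changes of -0.86, -1.47, -0.82 and -0.93, none of them called. Fanca was below all WT libraries in both KO libraries, at 3.69 and 3.39 CPM against 5.93, 6.54 and 6.74 CPM. For Fancb the WT libraries alone ran from 1.26 to 12.3 CPM. Fancc shares 18.6% of its exon length with other genes, Fancl 13.7% with Vrk2 and Fanca 10.5% with Zfp276, and their reads are uncertain to that extent. In AhCre the members of the core complex and its anchor lay between -0.21 and 0.12 (log2), and 2 of 5 were negative.

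The genes of strand exchange, Brca2, Palb2, Rad51b, Rad51c, Rad54l, Xrcc2 and Xrcc3, were negative in Villin in 6 of 7 cases, with a median of -1.43. Palb2, which joins BRCA1 to BRCA2, was at 2.696, 10.3 and 3.28 CPM in Villin WT and at 0.615 and 2.62 CPM in Villin KO (log2 fold change -1.71, adjusted p = 0.143). The highest KO value was just below the lowest WT value, and Villin WT 2 was far above the others. Rad51b, which also acts in strand exchange, was at 14.7, 10.5 and 7.71 CPM in Villin WT and 1.23 and 6.17 CPM in Villin KO (-1.53, adjusted p = 0.116). The groups did not overlap, but the KO libraries differed from each other more than the upper KO library did from the lowest WT library. Rad51c had a log2 fold change of -1.43 in Villin and 0.63 in AhCre, where both KO libraries (2.10 and 3.73 CPM) were above the WT libraries (1.81 and 1.94 CPM). Rad54l, a DNA motor protein, was -1.05 in Villin and -0.55 in AhCre, and in both drivers 1 KO library or more lay below all WT libraries. Rad54l shares 15.4% of its exon length with Lrrc41, and its reads are uncertain to that extent. Xrcc2 and Xrcc3, which act in the same step, were 0.05 and -0.27 in Villin and 0.07 and -0.23 in AhCre on the log2 scale.

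The genes of the BRCA1 complex and end resection had a Villin median of -0.42, and 0 of 7 were called (edgeR). Brca1 ranged from 5.21 to 14.2 CPM in Villin WT and was 2.25 and 9.87 CPM in Villin KO, so that KO 2 lay within the WT range (log2 fold change -0.71, adjusted p = 0.443). Bard1, its binding partner, was 4.13, 3.34 and 4.62 CPM in Villin WT and 1.23 and 2.16 CPM in Villin KO (-1.21, adjusted p = 0.123), without overlap. In AhCre the direction for Bard1 was the opposite, 7.68 and 7.38 CPM in WT and 9.86 and 9.45 CPM in KO, and there too the groups did not overlap. The difference between drivers was 1.57 (adjusted p = 0.256), which did not pass. Nbn and Rbbp8, which act in the first steps of resection, were 0.34 and 0.33 in Villin on the log2 scale, and Rad50, the partner of Nbn, was -0.86. The helicase Brip1 was -0.42 and the exonuclease Exo1 was -0.32, and Exo1 ran from 2.46 CPM in KO 1 to 11.7 CPM in KO 2, either side of the whole WT range of 5.21 to 11.03 CPM. None of these genes passed the test.

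Junction processing and alternative end joining were represented by Blm, Eme1 and Polq. Polq, the polymerase of alternative end joining, was 3.06, 6.29 and 3.47 CPM in Villin WT and 1.02 and 1.39 CPM in Villin KO. Its groups did not overlap, and its log2 fold change of -1.81 (SE 0.54) missed the threshold (adjusted p = 0.0646). Eme1, a subunit of a junction-cutting nuclease, had -1.53 (adjusted p = 0.0999), and Blm, a helicase, -0.96 (adjusted p = 0.206). In AhCre all 3 were between -0.36 and -0.04. Eme1 shares 10.7% of its exon length with Lrrc59 and Mrpl27, and its reads are uncertain to that extent.

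The mismatch repair, end joining and single-strand break genes had the Villin medians nearest to 0, at -0.09 for mismatch repair and -0.21 for end joining and single-strand break repair. Msh6, a mismatch sensor, was 0.33 in Villin and 0.47 in AhCre (log2), and in AhCre its KO libraries, 57.9 and 45.5 CPM, were above the WT libraries, 38.4 and 36.4 CPM. Pms2, which acts after mismatch recognition, was -0.51 in Villin. The Ku subunits Xrcc5 and Xrcc6 were 0.03 and -0.26 in Villin, Xrcc1 was -0.16, and Parp1, which binds nicks and breaks, was -0.64. None of these passed the test in either driver.

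Of the checkpoint genes only Atm was called. Atr, the kinase of stalled forks, was 8.45, 20.8 and 13.9 CPM in Villin WT and 5.94 and 9.10 CPM in Villin KO (log2 fold change -0.93, adjusted p = 0.197), which overlap. Chek1, the kinase downstream of ATR, was 5.75, 11.5 and 7.71 CPM in Villin WT and 1.43 and 8.95 CPM in Villin KO, so that KO 1 lay below and KO 2 within the WT range. Chek2 and Trp53 had log2 fold changes of -0.28 and -0.34. Per kilobase of the longest coding transcript, Trp53 had the highest level of the 35 in every group, from 60.7 CPM per kilobase in AhCre WT to 28.3 in Villin KO (54.4 in AhCre KO and 35.9 in Villin WT). Rad51c had the lowest in the first 3 groups, at 0.475, 0.739 and 0.479 CPM per kilobase. In Villin KO the lowest were Fancm (0.0924) and Fancd2 (0.107 CPM per kilobase).

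**Figure D2:**
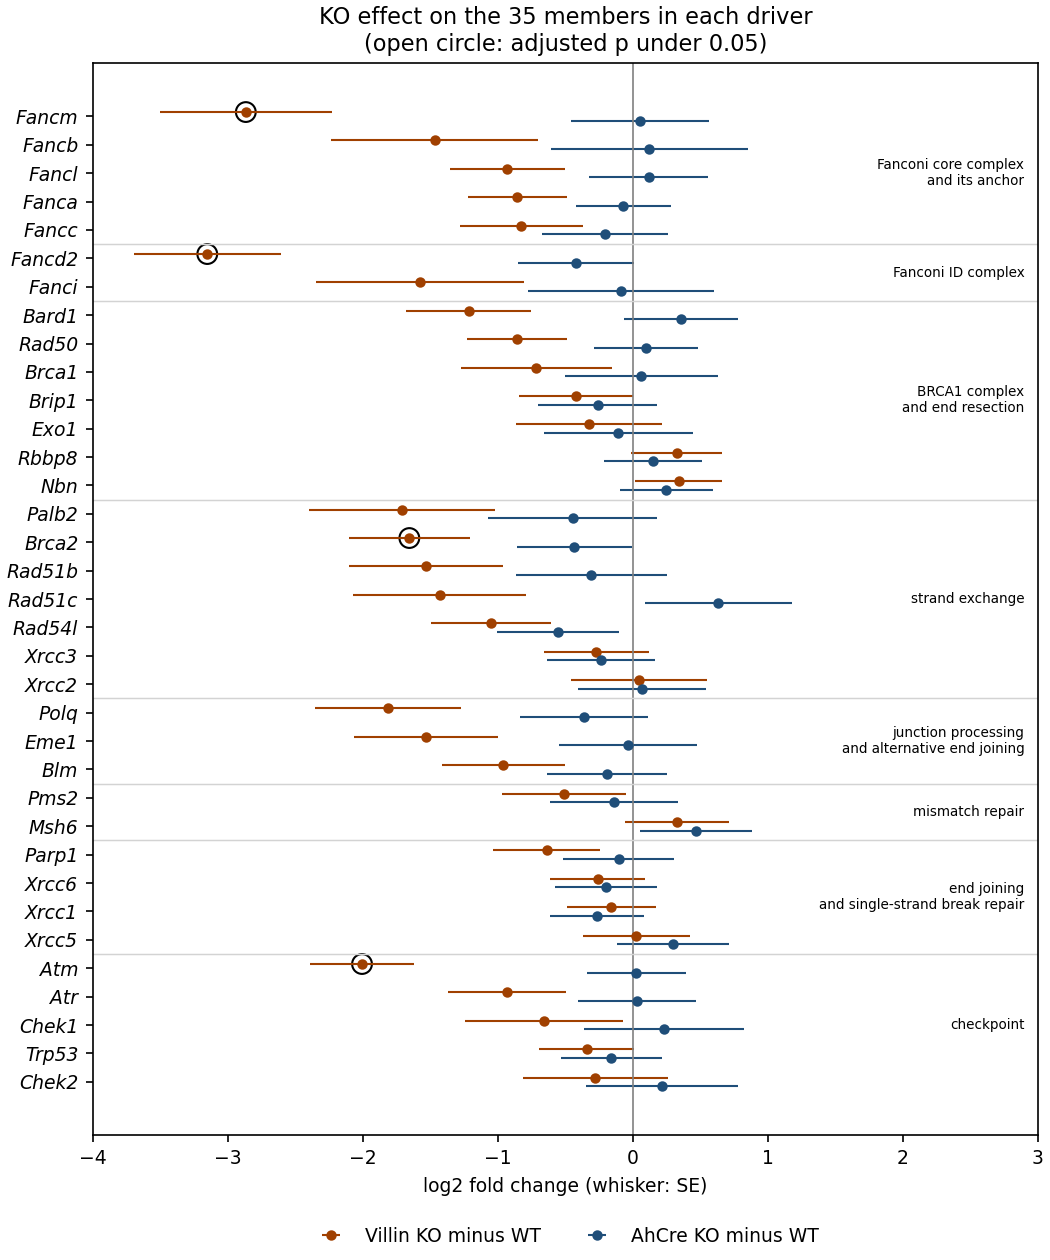
Log2 fold change of KO over WT for each of the 35 members in Villin and in AhCre, with whiskers of 1 standard error, grouped by role, and open circles around called members. The 4 called members, Fancd2, Atm, Fancm and Brca2, lie at -1.66 or lower in Villin, and AhCre values lie between -0.55 and 0.63.

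The order of the libraries was also compared member by member. Both Villin KO libraries were below all Villin WT libraries for 12 of 35 members (34.3%), beside 19.8% of all tested genes, and above them for 0, beside 14.5%. Both AhCre KO libraries were below both WT libraries for 11 members (31.4%), beside 25.1% of all genes, and above them for 6, beside 23.4%. The 6 were Rad51c, Bard1, Msh6, Chek1, Chek2 and Nbn. KO libraries were below WT libraries in both drivers for 4 members, Fancd2, Brca2, Rad51b and Palb2 (11.4%, beside 4.12% of all genes). The test of a difference between drivers called 0 members by edgeR, beside 0.0738% of all genes, although 5 had a larger AhCre than Villin value at an unadjusted p under 0.05. For that difference DESeq2 called 1 member, Atm, and limma-voom 0.

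The Villin KO libraries were not alike. Of the libraries, Villin KO 1 had the lower levels. In it, 29 of 35 members lay below all WT libraries, 4 within their range and 2 above, Msh6 and Rbbp8. In Villin KO 2, 12 lay below, 21 within and 2 above, Exo1 and Nbn. Thus 31 of 35 members were lower in KO 1 than in KO 2, all but Fanca, Fancm, Msh6 and Rbbp8. The same counts over all genes are not given for single libraries. These counts describe the libraries and are not read as a trait particular to the members.

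**Figure D3:**
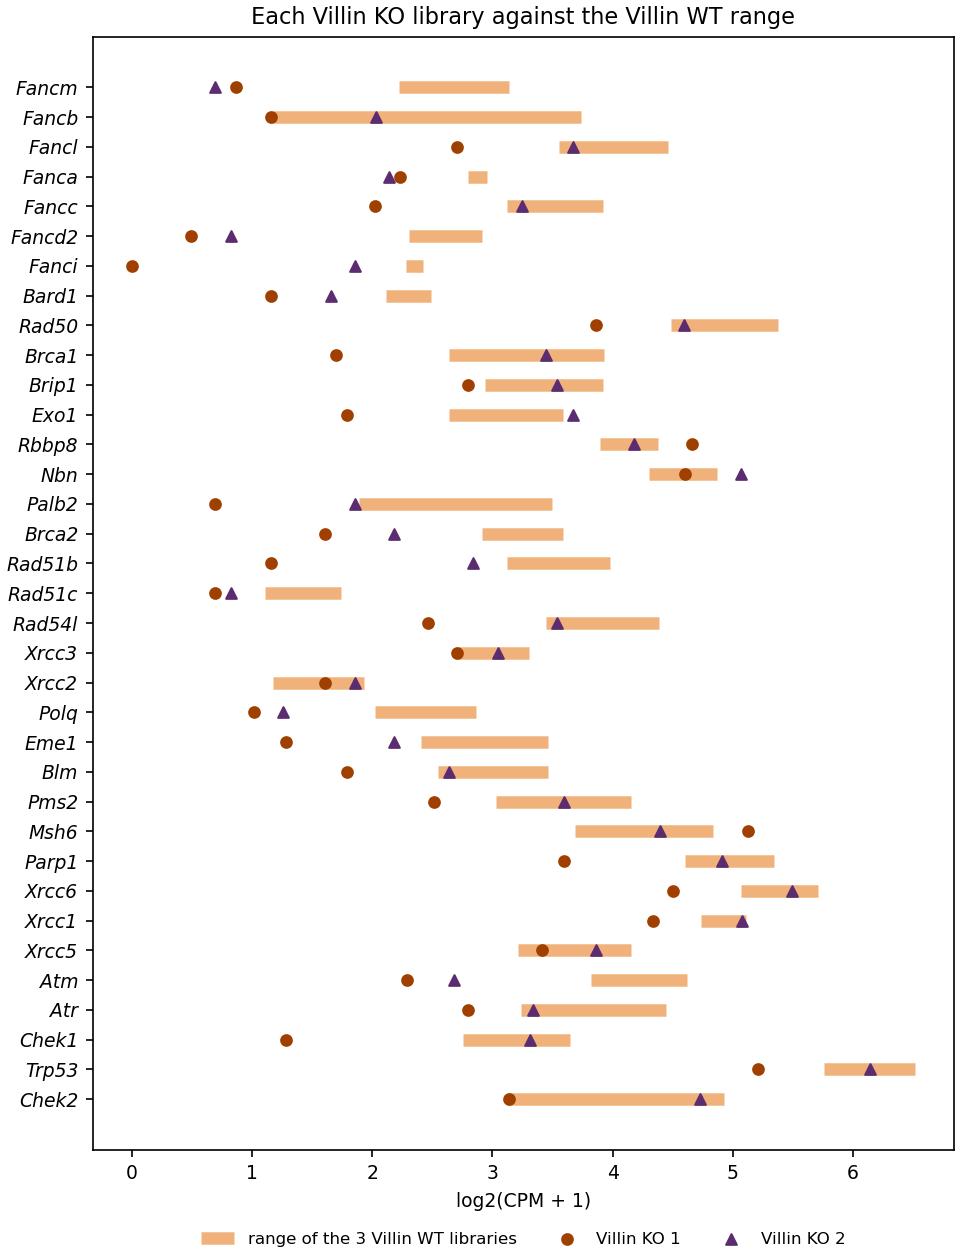
Level of each member, as log2(CPM + 1), in Villin KO 1 (circles) and Villin KO 2 (triangles), with a bar for the range of the 3 Villin WT libraries. More members lie below the WT range in KO 1 (29) than in KO 2 (12), and Fancd2, Atm, Fancm and Brca2 lie below it in both.

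The other genes of these pathways were taken from lists that do not hold the 35. In Villin, 0 of 22 other Fanconi and crosslink genes were called in either direction (median -0.41, with 6 lower at an unadjusted p under 0.05), and 0 of 30 other mismatch and excision repair genes (median -0.34, with 4 lower). By DESeq2 these counts were 1 lower and 0, and by limma-voom 0 and 0. The counts that follow stand beside the 2.88% of all genes called lower and the 3.33% called higher in Villin. Of 34 other homologous recombination genes 2 fell, Rad52, which anneals single strands, by 1.70 (log2, edgeR adjusted p = 0.0313) and the resolvase Gen1 by 1.84 (adjusted p = 0.0367). Of 14 other end joining genes 2 fell, Rif1 by 1.41 (adjusted p = 0.0273) and Prkdc, the DNA-dependent protein kinase, by 1.42 (adjusted p = 0.0488). Of 20 other checkpoint signalling genes 2 fell, Etaa1, an ATR activator, by 2.24 and H2afx, the histone that ATM phosphorylates, by 1.32 (edgeR adjusted p = 0.0272 and 0.0273). Of 28 p53 target genes 2 rose, Plk2 by 3.55 (edgeR adjusted p = 0.00773) and Btg2 by 1.195 (adjusted p = 0.0389), with a list median of 0.16. At an unadjusted p under 0.05, 8 p53 targets were higher and 3 lower. Plk2 was also called on the average of both drivers (2.52, edgeR adjusted p = 0.00952), beside 1.17% of all genes. Its AhCre level was 6.91 and 6.19 CPM in WT and 19.6 and 17.2 CPM in KO. Without Villin KO 1, a recount chosen after the data were seen, Plk2 was the only gene of these 6 lists called in Villin. Limma-voom, with all libraries, also called Plk2 alone. In AhCre edgeR called 0 genes of any of these lists, and at an unadjusted p under 0.05 only 1 p53 target, which was higher.

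Levels of cell cycle genes and of markers of some other cell types also differed between Villin KO and WT. The 35 members summed to 265 and 451 CPM in Villin KO against 414, 631 and 473 CPM in its WT, and to 789 and 743 CPM in AhCre KO against 808 and 767 CPM in its WT. The same sum over S phase genes was 1155, 1611 and 1544 CPM in Villin WT and 646 and 1448 CPM in Villin KO. Thus both sums were below the WT range in KO 1 and within it in KO 2. Of 36 S phase genes 2 fell in Villin, the activator E2f2 by 1.77 and the replication factor Gins1 by 1.58 (edgeR adjusted p = 0.0115 and 0.0450). The list median was -0.66. E2f2 was also called on the average of both drivers (-1.01, edgeR adjusted p = 0.0445), beside 0.197% of all genes called lower. Of 32 mitotic genes 5 fell, with a median of -1.16. Those with the smallest p were Hmmr, by 2.26 (edgeR adjusted p = 0.0103), Mki67, the marker of cycling cells, by 2.16 (0.0131), and the centromere proteins Cenpf, by 2.52 (0.0214), and Cenpe, by 2.02 (0.0328). Without Villin KO 1 edgeR called 0 S phase and 0 mitotic genes in Villin (2 and 6 lower at an unadjusted p under 0.05), with medians of -0.08 and -0.53, and limma-voom called 0 of either with it. The summed mitotic level was 1553, 1836 and 1725 CPM in Villin WT against 361 and 1126 CPM in Villin KO, with no overlap. The ratio of the member sum to the S phase sum was 0.410 and 0.311 in Villin KO against 0.358, 0.391 and 0.306 in its WT, which overlap, and lay between 0.395 and 0.431 in AhCre. The ratio of the member sum to the mitotic sum was 0.734 and 0.401 in Villin KO against 0.267, 0.344 and 0.274 in its WT, higher and without overlap, and lay between 0.351 and 0.387 in AhCre. In KO 2 the member and S phase sums lay within the WT range, and the mitotic sum lay below it. The called members Fancd2, Atm, Fancm and Brca2 also lay below it in KO 2. So did the called S phase genes E2f2 (12.0 CPM against 34.0 to 42.8) and Gins1 (5.24 CPM against 10.3 to 19.3). All these genes were called with KO 2 in the fit, so their place below WT is not a separate result. Of all 35 members 21 lay within the WT range in KO 2.

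**Figure D4:**
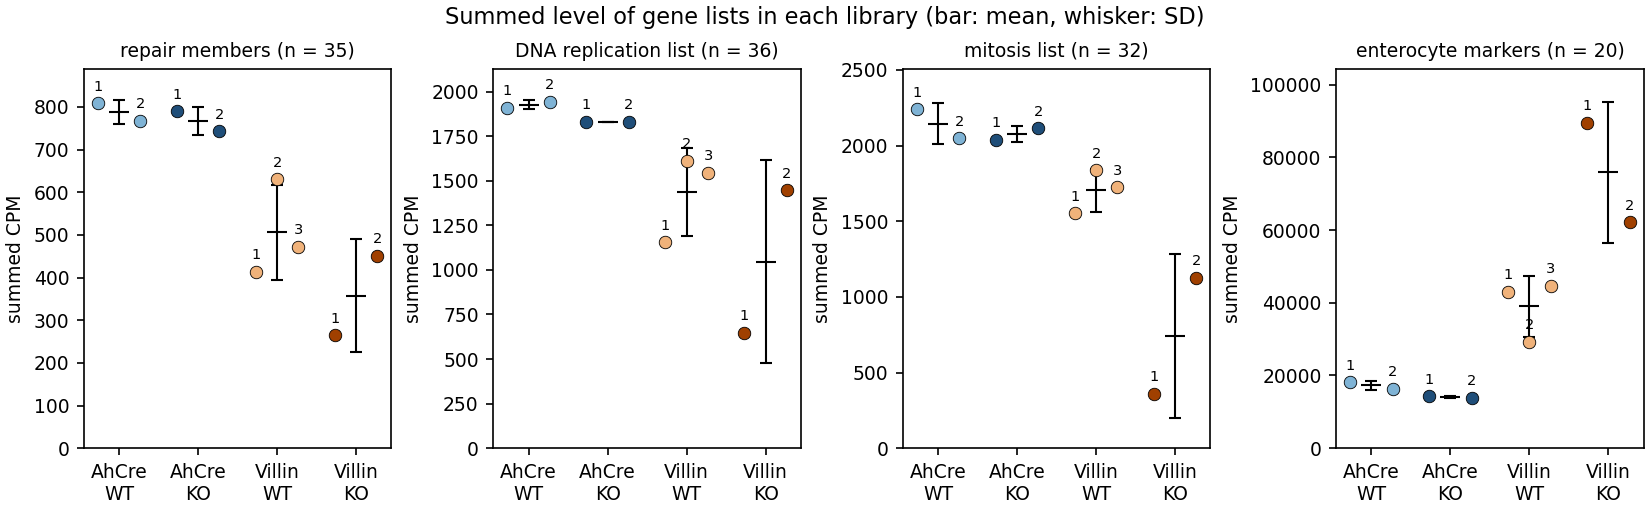
Summed CPM (linear y axis from 0) of the 35 members, 36 S phase (DNA replication) genes, 32 mitotic genes and 20 enterocyte markers, with each library as a numbered point and the mean and SD of each group. In Villin KO 1 the first 3 sums lie below all Villin WT libraries, and the enterocyte sum lies above them in both Villin KO libraries.

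Of 16 stem cell markers 4 fell in Villin, Lrig1, Slc12a2, Axin2 and Lgr5, and the summed level was 1330, 2909 and 2595 CPM in WT against 721 and 1792 CPM in KO. Without Villin KO 1 the number of stem cell markers called was 0 (8 lower at an unadjusted p under 0.05). Of 20 markers of absorptive enterocytes, which no longer divide, 11 rose, and the sum was 43040, 29259 and 44656 CPM in Villin WT against 89522 and 62173 CPM in Villin KO. Of 20 tuft cell markers 19 rose in Villin, with sums of 178, 130 and 267 CPM in WT against 5258 and 823 CPM in KO. Without Villin KO 1, 1 enterocyte marker and 7 tuft cell markers rose. In AhCre the enterocyte sum was 18175 and 16304 CPM in WT and 14220 and 13833 CPM in KO, while the tuft sum was 251 and 257 against 1437 and 1369 CPM. Thus tuft sums were higher in the KO libraries of both drivers, although 0 of the 20 tuft markers were called in AhCre by edgeR (19 at an unadjusted p under 0.05, with 12 called by DESeq2 and 20 by limma-voom), and the enterocyte sum was higher in Villin KO and lower in AhCre KO. Lymphocyte and plasma cell markers, of which 0 of 18 were called in Villin by edgeR (1 higher at an unadjusted p under 0.05, and 1 called by DESeq2 and 0 by limma-voom), summed to 267 to 2574 CPM in Villin WT and 609 and 2253 CPM in Villin KO. Of 18 myeloid markers 2 rose in Villin by edgeR, Kit and S100a9, while DESeq2 called 6 higher and limma-voom 0. The myeloid list summed to 54.0 to 292 CPM in Villin WT and 260 and 992 CPM in Villin KO. S100a9 rested on KO 2, at 11.6 CPM against 0.819 CPM in KO 1 and 0 to 0.719 CPM in WT. Kit was also higher in AhCre KO, at 89.5 and 78.0 CPM against 30.3 and 30.7 CPM, though not called there. The list median in AhCre was -0.50. Of 13 stromal markers that passed the filter (of 19 listed) 2 rose in Villin, the collagens Col1a1 and Col3a1. The list summed to 36 to 200 CPM in Villin WT and 209 and 228 CPM in Villin KO. In AhCre the direction was the opposite, with 188 and 189 CPM in WT and 91.3 and 92.0 CPM in KO, and 0 stromal markers were called there by edgeR. Of 16 goblet and Paneth cell markers 1 rose in Villin by edgeR, Clca1, with a list median of -0.41. DESeq2 also called Clca1 alone, and limma-voom called 0. Of 15 enteroendocrine markers 0 were called in Villin by edgeR, 1 by DESeq2 and 0 by limma-voom, with an edgeR median of -0.03. The part of these cell types in the levels of the repair genes was not tested. In bulk crypts, fewer dividing cells and less repair RNA per cell cannot be told apart.

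The 4 genes called in Villin have long transcripts. The longest coding transcript has 5512 bases for Fancd2, 9819 for Atm, 7775 for Fancm and 10724 for Brca2. Across 13314 tested genes with a coding transcript, the longest of 10 equal length bins (6848 bases or more) had a median Villin log2 fold change of -0.34, beside -0.07 over all 13314, and 0.01 in AhCre. The shortest bin had a Villin median of -0.24, and the bins between them ran from -0.16 to 0.08. The 7 members in the longest bin had a Villin median of -1.66. They were the called genes Atm, Fancm and Brca2, and Polq (-1.81), Atr (-0.93), Brip1 (-0.42) and Exo1 (-0.32), which were not called. Genes of the other lists that fell in Villin included short ones, Gins1 (1087 bases), H2afx (1384) and Rad52 (1693), and long ones, Rif1 (8509) and Prkdc (12647). Spearman's rho between transcript length and the Villin log2 fold change was -0.42 over the 35 members and -0.05 over all 13314 genes, given as a description across genes that share the same libraries. The part of transcript length in the calls was not tested.

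**Figure D5:**
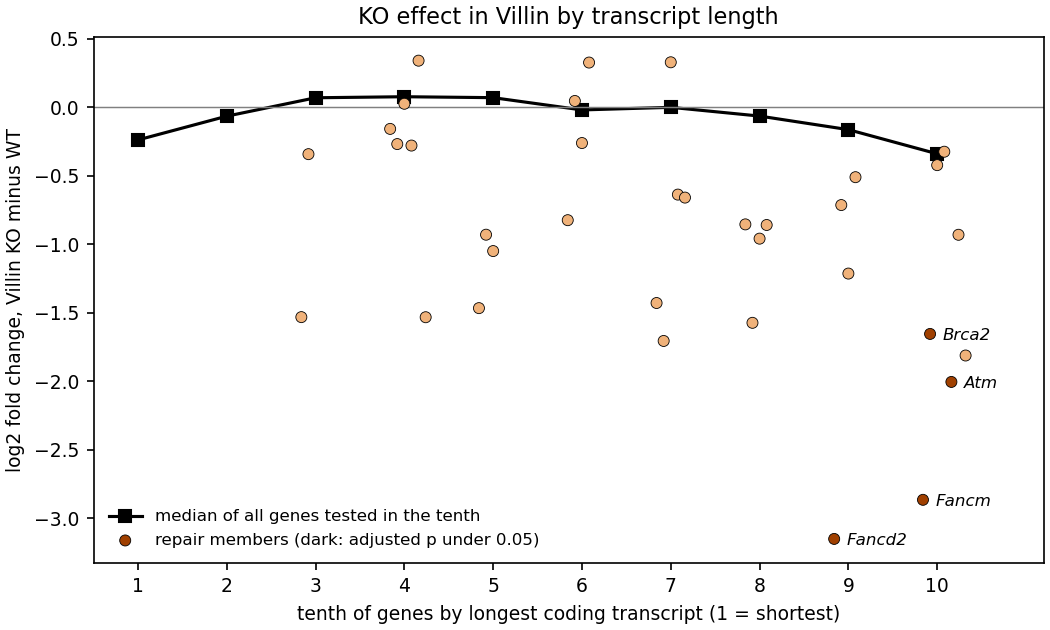
Log2 fold change of Villin KO over WT for genes divided into 10 equal bins by their longest coding transcript, with squares for the median of all genes tested in a bin and circles for the 35 members (dark where called). The median of the longest bin is -0.34, and the 7 members in it have a median of -1.66.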

How the data were processed

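The authors deposited raw read counts per gene for each of 9 libraries, as whole numbers without scaling. The tools named, per the submitters' processing notes, were featureCounts, STAR 2.7 and DESeq2 1.20, and the build was mm10 or GRCm38. Strand setting and annotation were not given in the sources used here. Every gene name (100%) was found in GENCODE M21, which gave coordinates and exon overlaps.

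Groups followed driver and genotype in the sample titles. In R 4.3.3, edgeR 4.0.16 fitted 1 mean per group by quasi-likelihood to all 9 libraries after filterByExpr and TMM scaling, with 5 residual and 7.43 prior degrees of freedom and a biological coefficient of variation of 0.332. Contrasts were the KO effect in each driver, their mean and their difference (AhCre minus Villin). P-values were adjusted over all 16250 genes, and an adjusted p under 0.05 was a call. CPM use TMM-scaled library sizes. No pair of replicates agreed within counting error.

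The 35 members and all gene lists were chosen with earlier results of these data known. Named were all 35 members and, of the repair, p53 target and cell cycle lists, up to 4 called genes per list, direction and contrast with the smallest p. Markers of cell types were picked with their values known. Alternatives were DESeq2 size factors, other low-count filters, the DESeq2 1.42.0 Wald test, limma-voom (limma 3.58.1) with sample weights, each driver alone, a replicate block and each library left out. The procedure was tested on simulated data.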

Additional observations from a re-analysis of the deposited data

How the results depend on the processing

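Members called in Villin (4) numbered 0 by limma-voom, with the Villin libraries alone and with both Villin WT 2 and Villin KO 1 left out, and 0 to 11 with each library left out. On the average (1) the number was 0 by limma-voom and with both libraries left out, and 0 to 3 with each library left out. For the difference (0) it was 1 by the DESeq2 Wald test, and 0 to 1 with each library left out. With both libraries left out the member median was -0.049 in Villin and -0.16, the reverse direction, for the difference. With each library left out it ran from -1.63 to -0.46 in Villin and from 0.33 to 1.56 for the difference. In AhCre 0 members were called with each library left out.

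The replicate numbers were not shown to pair the libraries: same-numbered WT and KO libraries had correlations of -0.162 in AhCre and 0.0750 and -0.199 in Villin. A replicate block gave 3 members called in Villin and 0 on the average, and 300 genes called in Villin and 0 for the difference. Crossing the numbers in AhCre within the block gave 0 members in Villin and 0 on the average, and 46, 48 and 0 genes called in Villin, on the average and for the difference. This crossing and the removal of both libraries were chosen after seeing the data.

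Over all genes, the counts called (1009 in Villin, 1 in AhCre, 190 on the average and 12 for the difference) were 1591, 137, 538 and 340 without the low-count filter, and 1749, 74, 438 and 380 by DESeq2. By limma-voom they were 138 (Villin), 911 (AhCre) and 144 (difference), with each driver alone 259 and 1046, and with both libraries left out 343, 123 and 113 in Villin, AhCre and the difference. With each library left out they ran from 73 to 1949, 1 to 64, 2 to 757 and 0 to 415. DESeq2 size factors moved the median of all genes in Villin from -0.18 to -0.076 and the share of calls that were higher from 53.6% to 64.5%, while the member median stayed 0.67 below that of all genes.

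Members changed sign only in arms in which they were not called, and Atm and Fancm, called in Villin, did so in AhCre. In Villin, log2 fold changes over the left-out libraries ran from -1.88 to 0.39 for Exo1, -0.080 to 0.67 for Msh6, -0.60 to 0.19 for Xrcc1, -0.24 to 0.37 for Xrcc2, -0.26 to 0.54 for Xrcc5 (-0.11 with the block), -0.88 to 0.17 for Xrcc6, -2.55 to 0.11 for Chek1, -1.39 to 0.34 for Chek2 and -0.91 to 0.070 for Trp53. In AhCre they ran from -0.16 to 0.023 for Fanca, -0.087 to 0.37 for Fancb, -0.38 to 0.16 for Fanci, -0.017 to 0.25 for Fancl, -0.40 to 0.53 for Fancm, -0.090 to 0.24 for Brca1, -0.28 to 0.058 for Exo1, -0.19 to 0.29 for Xrcc2, -0.54 to 0.027 for Xrcc3, -0.15 to 0.20 for Atm, -0.38 to 0.35 for Atr (-0.012 by limma-voom and -0.013 with the block), -0.10 to 0.46 for Rbbp8, -0.022 to 0.22 for Rad50 and -0.43 to 0.28 for Eme1. The cause of these changes was not tested. Depth limits Fancd2 and Fancm in Villin KO, where single-digit read counts carry the level.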
